A study of Homo sapiens with 12 samples.

Results

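The 10 genes described here encode the AP-1 and EGR transcription factors that were looked up by symbol in every count table: FOS, FOSB, FOSL1 and FOSL2 of the FOS family, JUN, JUNB and JUND of the JUN family, and EGR1, EGR2 and EGR3 of the EGR family. All 10 were found, among 55242 genes left after rRNA genes were removed, and all 10 passed the filter on low counts in every comparison. They were followed across 4 groups of 3 RNA-seq libraries from Hs 578T, a triple-negative breast cancer (TNBC) line of the mesenchymal stem-like subtype. The groups were cells transduced with a lentivirus for GFP, the control, or for full-length NRF2 (gene NFE2L2), the transcription factor of the antioxidant response, each kept for 8 h in medium with 0.8 mM l-cystine (with Cyss) or with no cystine (without Cyss). All groups received the same base medium with serum, methionine and glutamine. Each group was a transduced population, and the sources used here name no promoter for the transgenes and no selected clone.

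AP-1 is a dimer of basic leucine zipper (bZIP) proteins. JUN proteins pair with each other or with a FOS protein, whereas FOS proteins need a JUN partner to bind DNA. FOS, FOSB, JUN, JUNB and the EGR genes are classical immediate early genes: growth factors and stress turn them on within minutes through MAP kinases, serum response factor (SRF) and its ETS partners at CArG boxes, and CREB and ATF proteins at the cAMP response element (CRE), and their mRNAs are short-lived. FOSL1 (FRA1), FOSL2 (FRA2) and JUND are more often held at a steady level, and FOSL1 is known for its high level in mesenchymal breast cancer cells. EGR1, EGR2 and EGR3 are zinc finger factors that bind GC-rich sites and are curbed by the co-repressors NAB1 and NAB2.

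Promoter windows are printed for EGR1, EGR2, FOS and JUN, the members with the largest rises among those in the set of RefSeq promoters used here. That of JUND, which fell, is printed as well. The windows hold some of the elements through which this family is known to respond. Each runs from 250 bases before to 50 bases after a RefSeq transcription start in GRCh38.p14, 5′ to 3′ on the strand of the gene. Capitals mark CRE cores (TGACG, the conserved part of the CRE), AP-1 sites (TGANTCA), JUN-type sites (TGACATCA) and CArG boxes, on either strand. The windows lie at chr5:138465229-138465528 (plus strand, EGR1), chr10:62816317-62816616 (minus strand, EGR2, the third of its RefSeq starts), chr14:75278578-75278877 (plus strand, FOS), chr1:58783998-58784297 (minus strand, JUN) and chr19:18281573-18281872 (minus strand, JUND).
EGR1: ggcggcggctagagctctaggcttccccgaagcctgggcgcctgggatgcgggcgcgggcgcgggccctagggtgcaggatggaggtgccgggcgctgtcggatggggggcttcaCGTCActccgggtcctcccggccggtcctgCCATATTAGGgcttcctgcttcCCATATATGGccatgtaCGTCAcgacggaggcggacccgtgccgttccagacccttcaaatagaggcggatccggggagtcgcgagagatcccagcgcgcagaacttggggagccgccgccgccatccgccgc
EGR2: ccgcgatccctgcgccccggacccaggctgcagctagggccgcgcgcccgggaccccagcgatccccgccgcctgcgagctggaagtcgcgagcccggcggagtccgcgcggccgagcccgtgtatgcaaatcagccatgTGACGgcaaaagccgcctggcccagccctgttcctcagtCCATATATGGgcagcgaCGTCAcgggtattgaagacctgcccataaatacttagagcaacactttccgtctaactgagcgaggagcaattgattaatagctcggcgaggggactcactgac
FOS: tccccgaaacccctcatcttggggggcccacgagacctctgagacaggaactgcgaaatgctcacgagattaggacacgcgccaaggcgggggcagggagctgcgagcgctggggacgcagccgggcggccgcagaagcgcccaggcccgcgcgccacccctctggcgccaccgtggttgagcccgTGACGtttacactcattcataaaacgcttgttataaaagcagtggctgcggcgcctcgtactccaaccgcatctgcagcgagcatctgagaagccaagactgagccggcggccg
JUN: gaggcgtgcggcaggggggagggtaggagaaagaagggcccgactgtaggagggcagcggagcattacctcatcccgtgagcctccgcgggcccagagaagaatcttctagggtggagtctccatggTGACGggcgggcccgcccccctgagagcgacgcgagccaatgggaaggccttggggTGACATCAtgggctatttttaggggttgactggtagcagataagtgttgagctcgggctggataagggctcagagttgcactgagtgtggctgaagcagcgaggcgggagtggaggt
JUND: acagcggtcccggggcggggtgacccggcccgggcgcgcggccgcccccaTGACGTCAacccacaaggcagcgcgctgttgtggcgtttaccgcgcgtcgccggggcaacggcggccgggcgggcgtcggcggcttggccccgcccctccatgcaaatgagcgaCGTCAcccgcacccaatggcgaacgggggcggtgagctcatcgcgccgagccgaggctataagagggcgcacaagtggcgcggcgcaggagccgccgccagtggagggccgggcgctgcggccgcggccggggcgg

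RefSeq windows were matched for 8 of the 10 genes, in 10 windows since EGR2 has 3, and FOSL1 and EGR3 were not in the promoter set used here. Each of these 8 genes held the CRE core TGACG in at least 1 window. By window, 8 of the 10 held it, against 24.6% of all 35116 promoter windows of the same length, on either strand. In FOS it lay from -64 to -60 relative to the start, and in FOSB, a gene of the same family, from -60 to -56. JUND alone held the whole CRE, TGACGTCA, from -200 to -193, where its overlapping cores on both strands join, against 1.85% of all windows. CArG boxes were matched in EGR1, from -105 to -96 and from -83 to -74, and in EGR2, from -71 to -62, against 1.29% of all windows. The JUN-type site, through which JUN is known to drive its own gene, was matched in JUN from -67 to -60 and is held by 2.61% of all windows. The AP-1 site TGANTCA was matched in FOSL2 from 5 to 11 after the start, against 7.71%, and the EGR site GCGNGGGCG in EGR1 and EGR2, against 9.43%. The core of the antioxidant response element bound by NRF2, TGACNNNGC, was matched in EGR2 from -58 to -50 and in JUND from -230 to -222 and from -90 to -82, against 13.3%. It overlaps a CRE core in EGR2 and at the second place in JUND. These are matches of letters, not measured binding. Bases outside the windows were not searched, so a gene with no match, such as FOS for the CArG box, may hold the motif elsewhere.

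**Figure D1:**
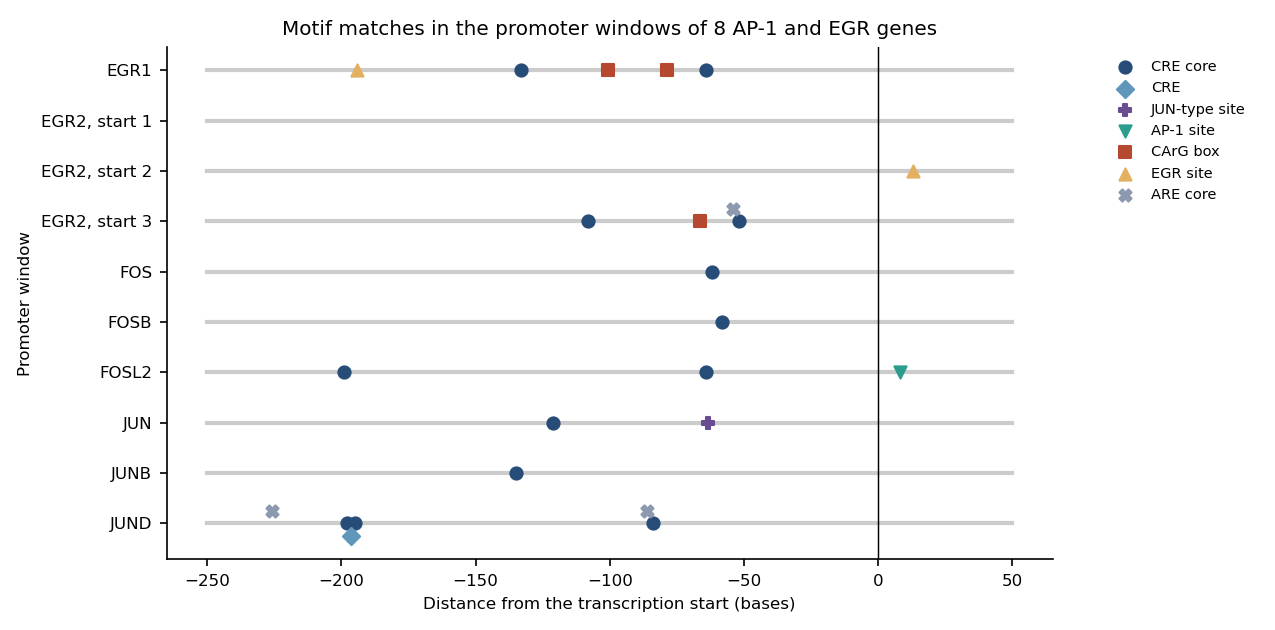
Motif matches (symbols) in the promoter windows (grey lines) of 8 AP-1 and EGR genes, against the distance from the transcription start in bases. CArG boxes stand in the windows of EGR1 and of the third start of EGR2, and CRE cores in at least 1 window of each of the 8 genes.

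Library depth and group labels were looked at before the genes. Reads on genes numbered 27250993 to 44596870 per library. NFE2L2, the label check, had 3647 to 4655 normalized counts in the 6 GFP libraries and 6598 to 8396 in the 6 NRF2 libraries. Every library thus went with its GFP or NRF2 label, and no gene was used to check the Cyss labels. The line is labelled epithelial, but EPCAM, KRT19, CLDN3 and CLDN7 were each below 0.1 CPM in every library, CDH1, CLDN4 and OCLN reached 0.654 CPM at most, KRT8 and KRT18 reached 6.95 and 43.8 CPM, and the mesenchymal markers VIM and FN1 were at 4246 CPM or more. Of the leukocyte and endothelial markers, CD3E was at 0, CDH5 and CD68 reached 0.0726 and 0.601 CPM, and PTPRC reached 1.57 CPM. Replicate 3 of GFP without Cyss stood apart from its group, at 4.78 on the first principal component against -6.84 and -4.25 in the other two, toward NRF2 without Cyss (19.4 to 21.6). Many counts of called genes that it enters, and some of the values that its removal moves, are therefore also given without it. Replicate 1 of NRF2 without Cyss also differed from its group. Its read counts gave a chi-square per degree of freedom of 11.7 against replicate 3 and 5.85 against replicate 2. Within GFP without Cyss the largest value was 4.96. This library had the largest share of reads on no feature, 7.84%, and the highest JUND and FOSL2 counts of its group. The lists were not refitted without it.

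Compared per length, the family was led by FOSL1 and JUN in every group. In GFP cells with Cyss, the mean RPKM (RPKM being reads per kilobase of merged exons scaled to library size, n = 3) was 116 ± 2.91 (SD) for FOSL1, 39.1 ± 0.959 for JUN, 28.5 ± 0.302 for FOSL2, 18.5 ± 0.785 for JUND and 13.7 ± 1.09 for JUNB. EGR1 followed at 1.61 ± 0.194, FOS at 0.419 ± 0.0358, EGR2 at 0.296 ± 0.0297, EGR3 at 0.212 ± 0.0595 and FOSB at 0.190 ± 0.0405. The libraries of EGR2 and EGR3 overlapped on this scale, as did those of EGR3 and FOSB, and all other neighbours in the order were apart. In NRF2 cells without Cyss the order had changed below FOSL2, at 23.9 ± 2.44 RPKM. JUNB stood at 17.6 ± 0.757, EGR1 at 17.5 ± 1.90 and JUND at 16.0 ± 2.42, 3 genes whose libraries overlapped. EGR3 (1.10 ± 0.173) and FOS (1.07 ± 0.140) also overlapped there. FOS and FOSB, classical immediate early genes, each made up less than 0.6% of the RPKM of the FOS family in the mean of every group. Lengths are from GENCODE 44 on hg19 and not from the annotation used for counting.

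Among the EGR genes, EGR1 had the largest fold between groups of the 10 members. Its normalized counts, scaled to a common library size, were 166, 152 and 192 with Cyss in GFP cells, and without Cyss 234, 272 and 451. In NRF2 cells it had 288, 301 and 278 with Cyss, and 1902, 1621 and 2008 without. All 3 libraries of NRF2 without Cyss lay at more than 3 times the highest library of any other group, and the libraries of GFP and NRF2 cells with Cyss did not overlap either. In RNA from whole cultures, more cells expressing a gene and more RNA per cell cannot be told apart.

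EGR3, a factor of the same family that MAP kinase signals also induce, showed a like pattern at a lower level. In GFP cells the normalized counts were 46.7, 26.8 and 34.1 with Cyss against 37, 50.6 and 109 without, the last being replicate 3. In NRF2 cells it had 39.0, 40.1 and 39.5 with Cyss and 160, 181 and 218 without. Only the GFP groups overlapped when the media were compared. EGR2, best known for its role in myelination and in T cells, had 34.4, 35.0 and 41.1 with Cyss in GFP cells against 52.0, 52.9 and 51.7 without. In NRF2 cells it had 37.8, 34.9 and 38.4 with Cyss and 91.4, 86.6 and 85.1 without. The media did not overlap in either kind of cell, and replicate 3 of GFP without Cyss did not stand apart for EGR2.

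In the FOS family, FOS itself was low. Its normalized counts in GFP cells were 41.4, 44 and 49.0 with Cyss against 43.0, 37.9 and 61.5 without, and in NRF2 cells 64.6, 54.9 and 49.3 with Cyss and 129, 99 and 117 without. The GFP groups overlapped and the NRF2 groups did not. FOSB, whose protein forms the same kind of dimers, had 29.7 to 44.1 in GFP cells with Cyss, 31.0 to 47.3 in GFP cells without, 35.3 to 37.3 in NRF2 cells with Cyss and 53.6 to 58.5 in NRF2 cells without. With FOSB, too, only NRF2 without Cyss stood clear of the other groups.

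FOSL1, the main FOS family transcript of this line, had normalized counts of 7163, 7323 and 7531 with Cyss in GFP cells, against 6830, 7255 and 8770 without. In NRF2 cells it had 7363, 7129 and 7626 with Cyss and 10792, 10283 and 11097 without. FOSL2 went the other way: it had 6784 to 6929 in GFP cells with Cyss, 6026 to 6749 in GFP cells without, 6890 to 6920 in NRF2 cells with Cyss and 5248 to 6396 in NRF2 cells without. Within each kind of cell every FOSL2 library without Cyss was below every library with Cyss. The processed pseudogene FOSL1P1 drew 19 to 68 reads per library, few beside the 6041 to 11220 reads on FOSL1.

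In the JUN family, JUN had normalized counts of 4630, 4839 and 4826 with Cyss in GFP cells, against 4591, 5227 and 6640 without. In NRF2 cells it had 5332, 5130 and 5347 with Cyss and 8604, 9101 and 9998 without. JUNB, which often opposes JUN in growth control, had 772 to 904 in GFP cells with Cyss, 800 to 892 in GFP cells without, 835 to 942 in NRF2 cells with Cyss and 1029 to 1113 in NRF2 cells without. JUND, the most constitutive JUN protein, had 1139 to 1235 and 1072 to 1258 in GFP cells with and without Cyss, 1243 to 1378 in NRF2 cells with Cyss and 1220, 958 and 940 in NRF2 cells without. So JUN and JUNB were highest, and JUND lowest on average, in the same group. JUNB shares 259 exonic bases with HOOK2 on the other strand, and since counting was without strand, reads there could not be assigned by strand.

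**Figure D2:**
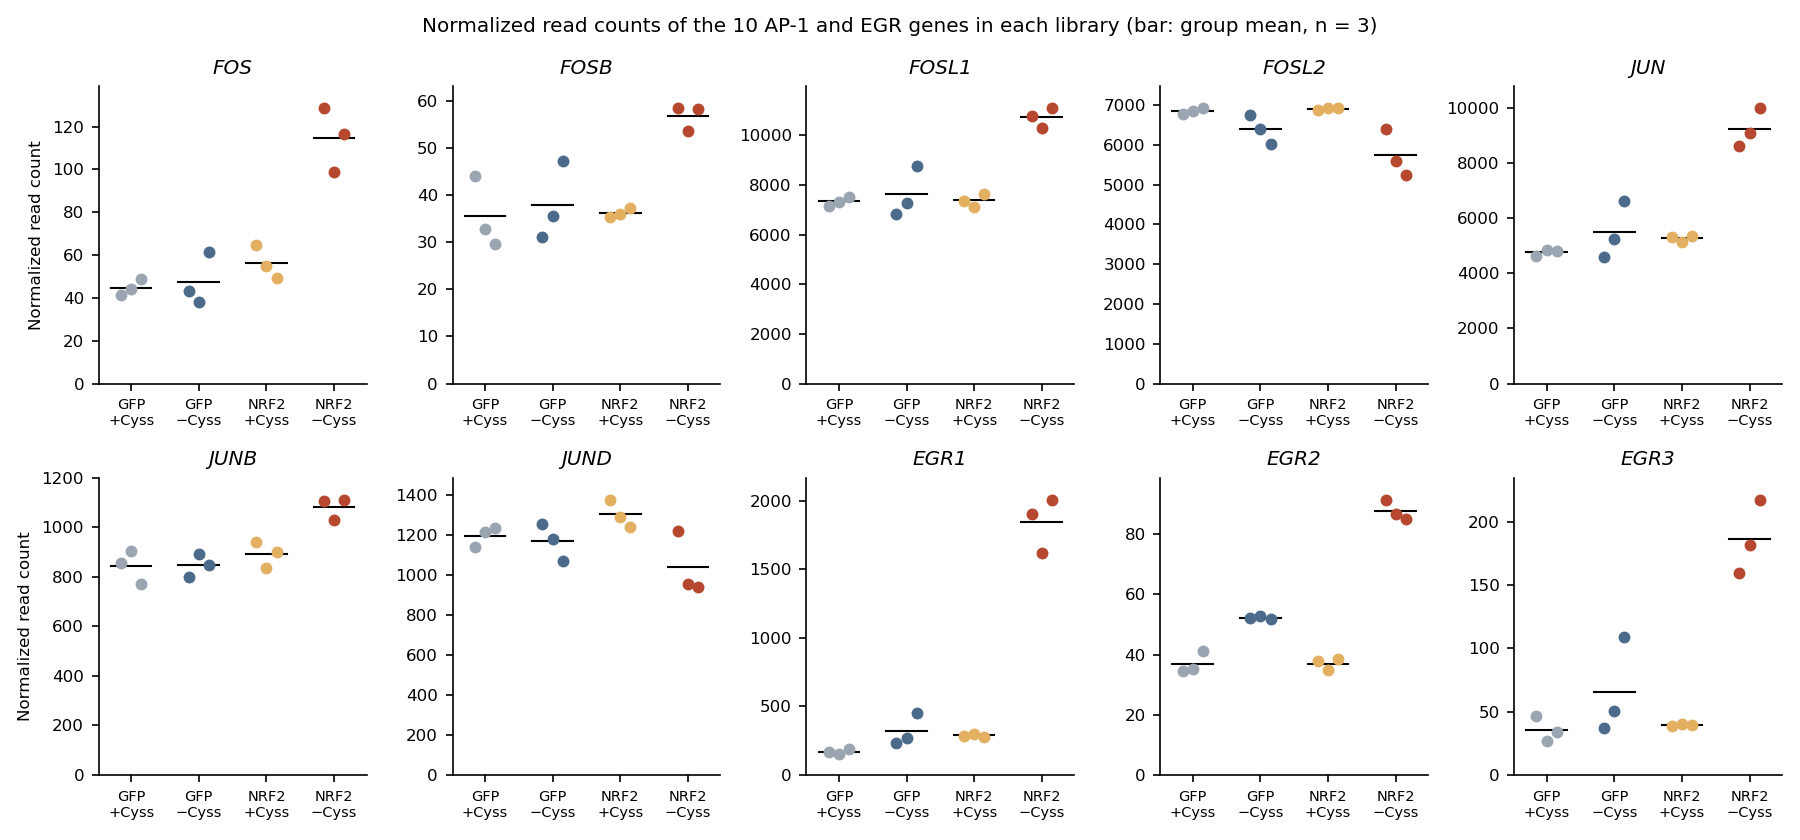
Normalized read counts (vertical axes, each from 0) of the 10 genes in the 12 libraries (points) of 4 groups, with group means (bars). For EGR1, EGR2, EGR3, FOS, FOSB, FOSL1, JUN and JUNB the 3 libraries of NRF2 without Cyss are above all others. FOSL2 and JUND have their lowest means there. The share of all genes with either pattern was not counted.

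The genes lie on hg19 as follows. FOS is on chromosome 14 (75745529 to 75748933, plus strand), FOSL1 on chromosome 11 (65659520 to 65668044, minus strand), FOSL2 on chromosome 2 (28615315 to 28640184, plus strand) and JUN on chromosome 1 (59242517 to 59249720, minus strand). Chromosome 19 holds JUNB (12902300 to 12904129, plus strand), JUND (18390504 to 18392432, minus strand) and FOSB (45971253 to 45978437, plus strand). EGR1 is on chromosome 5 (137801168 to 137804992, plus strand), EGR2 on chromosome 10 (64571756 to 64578927, minus strand) and EGR3 on chromosome 8 (22545172 to 22550993, minus strand). Counts cover the exons of these genes, and JUNB and JUND have a single block of exon.

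The first comparison asked how Cyss deprivation changed these genes in GFP cells. EGR1 rose 1.87-fold (log2FC 0.91, SE 0.194, adjusted p = 0.0221), and it was the only 1 of the 10 that was called, meaning that it passed an adjusted p of 0.1 and a fold threshold of 0.32 on the log2 scale, in edgeR's quasi-likelihood (QL) fit to 17452 genes with p-values adjusted by Benjamini and Hochberg's method. Over all genes, 1.57% were called higher and 0.533% lower. The other EGR genes had log2FC values of 0.50 (EGR2, SE 0.155, adjusted p = 0.106) and 0.87 (EGR3, SE 0.340, adjusted p = 0.195), and the 7 FOS and JUN genes ranged from -0.10 (FOSL2) to 0.20 (JUN) with adjusted p values of 0.227 or more. The median log2FC of the 10 was 0.09, against 0.00 over all genes. Without replicate 3 of GFP without Cyss, the log2FC of EGR1 was 0.58 (adjusted p = 0.0179), that of EGR3 was 0.29 (adjusted p = 0.612), and EGR1 was again the only member called (234 of 17550 genes were called higher and 68 lower in that fit). Without replicate 2 of GFP with Cyss, none was called (EGR1 log2FC 0.83, adjusted p = 0.101), and without replicate 1 of GFP without Cyss, EGR3 was called as well (log2FC 1.17, adjusted p = 0.0572).

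The second comparison asked the same in NRF2 cells, where 7 of the 10 genes rose and 1 fell, while 6.81% of the 17266 genes tested were called higher and 5.14% lower. EGR1 rose 6.37-fold (log2FC 2.67, SE 0.0839, adjusted p = 1.25e-10), the eighth largest rise and the smallest p of all genes tested. EGR3 rose 4.70-fold (log2FC 2.23, SE 0.155), EGR2 2.36-fold (1.24, SE 0.154), FOS 2.04-fold (1.03, SE 0.156), JUN 1.75-fold (0.81, SE 0.0538), FOSB 1.57-fold (0.65, SE 0.168) and FOSL1 1.45-fold (0.54, SE 0.0464). Their adjusted p values ran from 6.65e-08 for JUN to 0.0128 for FOSB. JUND fell by 0.33 on the log2 scale (SE 0.0855, adjusted p = 0.0124), just past the fold threshold, and lost its call without replicate 1 of NRF2 with Cyss (-0.29) or replicates 2 or 3 of NRF2 without Cyss (-0.28 and -0.26). JUNB (log2FC 0.28, adjusted p = 0.00491) and FOSL2 (-0.27, adjusted p = 0.00585) passed the test but not the fold threshold. The median log2FC of the 10 was 0.73, against -0.01 over all genes. Scaled by library size alone, the share of calls that were higher over all genes was 40.1% rather than 57%, 7 of the 10 genes still rose, and FOSL2 fell with JUND (log2FC -0.33). That scaling called 936 of 17279 genes higher and 1397 lower.

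**Figure D3:**
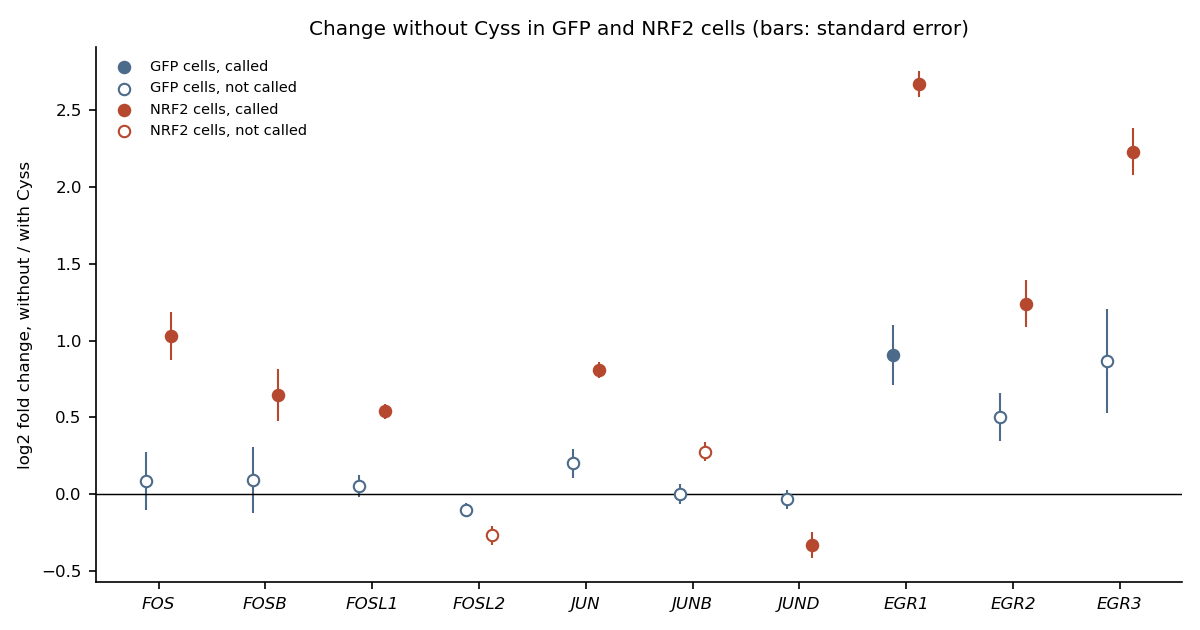
Fitted log2FC without against with Cyss (vertical axis) for the 10 genes in GFP cells (blue) and NRF2 cells (red), with standard errors as bars and filled symbols for called genes. In GFP cells EGR1 alone is called, and in NRF2 cells 7 genes are called above 0 and JUND below.

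Whether NRF2 cells responded to Cyss deprivation differently from GFP cells was asked of the 12 libraries together through an interaction term, called at an adjusted p under 0.1. It was positive for 7 of the 10 genes and called negative for none (JUND was negative at an unadjusted p under 0.05, and DESeq2's Wald test called 5 positive and 1 negative, JUND), while 8.97% of 17674 genes were called positive and 6.13% negative. Of these 17674 genes, 4376 were under that unadjusted p in either direction, and DESeq2's Wald test called 1530 positive and 903 negative. The response of EGR1 was larger in NRF2 cells by 1.76 on the log2 scale (SE 0.234, adjusted p = 6.39e-04), that of EGR3 by 1.36 (SE 0.418, adjusted p = 0.0484), that of FOS by 0.95 (SE 0.249, adjusted p = 0.0245) and that of EGR2 by 0.74 (SE 0.204, adjusted p = 0.0329). JUN differed by 0.61 (SE 0.124, adjusted p = 0.00529), FOSL1 by 0.49 (SE 0.0920, adjusted p = 0.00327) and JUNB by 0.28 (SE 0.0927, adjusted p = 0.0679). FOSB (0.55, adjusted p = 0.209), FOSL2 (-0.16, adjusted p = 0.210) and JUND (-0.30, adjusted p = 0.113) did not pass. Without replicate 3 of GFP without Cyss, 8 were positive, FOSB included, and JUND was negative (log2FC -0.36, adjusted p = 0.0581), while 1717 of 17737 genes were called positive and 1215 negative. The call of EGR3 was lost without replicate 3 of NRF2 with Cyss, replicate 1 of GFP with Cyss, or replicates 1 or 2 of GFP without Cyss (adjusted p from 0.101 to 0.150), and that of EGR2 without replicate 3 of GFP with Cyss (0.101). JUNB lost its call in 6 of 12 leave-one-out fits (NRF2 with Cyss 2 and 3, NRF2 without Cyss 1, GFP with Cyss 1 and 2, GFP without Cyss 1, adjusted p from 0.104 to 0.179), whereas EGR1, FOS, JUN and FOSL1 were called in all 12. Scaled by library size alone, 36.2% of all calls rather than 59.4% were positive, and of the 10 genes 6 were positive and 2 negative (JUND and FOSL2). That scaling called 1124 of 17677 genes positive and 1981 negative.

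With Cyss in the medium, NRF2 cells were compared with GFP cells, and EGR1 was again the only member called. It was 1.71-fold higher in NRF2 cells (log2FC 0.77, SE 0.0915, adjusted p = 1.05e-04), where 1.36% of 17449 genes were called higher and 0.201% lower. JUN was 0.14 higher on the log2 scale (SE 0.0366, adjusted p = 0.0405), under the fold threshold, and FOS had a log2FC of 0.32 (SE 0.162, adjusted p = 0.292). FOSL1, FOSL2 and EGR2 had log2FC values of 0.01 each, FOSB of 0.03, JUNB of 0.08, JUND of 0.12 and EGR3 of 0.16. The standard errors of FOSB, EGR2 and EGR3 lay between 0.178 and 0.209, so differences of that size were not detectable at their 27 to 47 normalized counts.

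Without Cyss, the same comparison called 8 members higher in NRF2 cells and none lower (1 was lower at an unadjusted p under 0.05, FOSL2, and DESeq2's Wald test called 7 higher and none lower), while 5.98% of 17297 genes were called higher and 4.09% lower. Of these 17297 genes, 5962 were under that unadjusted p in either direction, and DESeq2's Wald test called 849 higher and 422 lower. EGR1 was 5.74-fold higher (log2FC 2.52, SE 0.168, adjusted p = 6.38e-06), EGR3 2.84-fold (1.51, SE 0.266), FOS 2.39-fold (1.26, SE 0.179), JUN 1.67-fold (0.74, SE 0.105), EGR2 1.66-fold (0.73, SE 0.133), FOSB 1.49-fold (0.57, SE 0.184), FOSL1 1.39-fold (0.48, SE 0.0774) and JUNB 1.27-fold (0.34, SE 0.0621), the adjusted p of the other 7 being at most 0.0450. FOSL2 (-0.17, adjusted p = 0.109) and JUND (-0.19, adjusted p = 0.183) did not pass. This comparison shares its NRF2 libraries with the second and its GFP libraries with the first. Leaving out replicate 3 of GFP without Cyss kept all 8 calls, with EGR1 at 2.86 and EGR3 at 2.09 on the log2 scale. In that fit 1136 of 17375 genes were called higher and 809 lower. FOSB lost its call in DESeq2's Wald test (adjusted p = 0.111) and without replicates 1 or 2 of GFP without Cyss, the latter fits with adjusted p values of 0.178 and 0.152, and JUNB lost its call when scaled by library size (log2FC 0.31) or without replicate 1 (0.30). Scaled by library size alone, the share of calls that were higher over all genes was 46.7% rather than 59.4%, with 876 of 17288 genes called higher and 1001 lower. Exact permutation tests of single genes cannot go below p = 0.1 with 3 against 3 libraries.

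The make-up of each family per length also differed between the groups. FOSL1 made up 79.9% ± 0.238 (SD, n = 3) of the summed RPKM of the FOS family in GFP cells with Cyss, 81.4% ± 2.66 without, 79.8% ± 0.554 in NRF2 cells with Cyss and 87.0% ± 1.23 without. FOSL2 correspondingly went from 19.7% ± 0.528 to 12.3% ± 1.21 in NRF2 cells. JUN took 54.9% ± 0.686 of its family in GFP cells with Cyss, 58.3% ± 5.42 without, 55.6% ± 1.0 in NRF2 cells with Cyss and 69.2% ± 3.07 without, while JUND went from 25.8% ± 1.0 to 14.7% ± 2.53 in NRF2 cells. In the EGR family, EGR1 went from 76.0% ± 1.80 in GFP cells with Cyss to 83.8% ± 0.846 in NRF2 cells with Cyss and 90.6% ± 0.905 in NRF2 cells without. The summed RPKM went from 146 ± 3.89 to 194 ± 6.69 (FOS family), from 77.9 ± 2.38 to 109 ± 4.57 (JUN family) and from 3.27 ± 0.0954 to 19.3 ± 1.97 (EGR family) in NRF2 cells when Cyss was left out. Without replicate 3, GFP cells without Cyss had 79.0% and 80.8% for FOSL1 and 53.8% and 56.7% for JUN. Shares of a sum move together and were not tested.

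**Figure D4:**
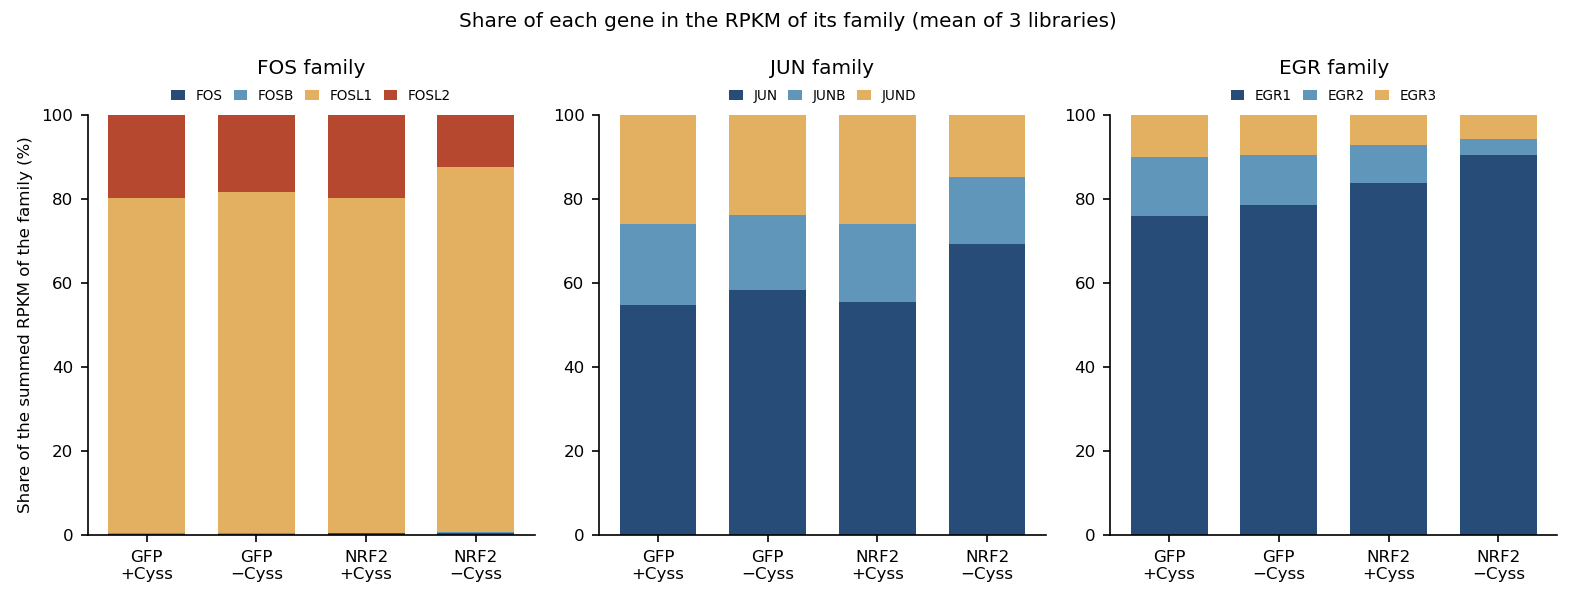
Share of each gene in the summed RPKM of its family (vertical axis, percent, mean of 3 libraries) in the 4 groups. FOSL1, JUN and EGR1 hold the largest share in every group, and a larger one in NRF2 cells without Cyss (87.0%, 69.2% and 90.6%).

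Genes known as AP-1 targets, 16 by list, were then read beside the factors. This list and those below were written from general knowledge, but with earlier results of these data known. Their counts are therefore a description and not independent evidence. Of the 15 tested, 6 were called higher and none lower without Cyss in GFP cells, and 13 higher and none lower in NRF2 cells, with median log2FC values of 0.34 and 0.99 against 0.00 and -0.01 over all genes, of which 1.57% and 6.81% were called higher. At an unadjusted p under 0.05 none was lower in either, and DESeq2's Wald test called 3 and 13 higher and none lower. Of all genes, 3160 of 17452 in GFP cells and 5887 of 17266 in NRF2 cells were under that unadjusted p, in either direction. DESeq2's Wald test called 194 and 963 of all genes higher, and 69 and 611 lower. MMP1, the interstitial collagenase, counted 178, 172 and 204 with Cyss in GFP cells, 225, 257 and 420 without, 191, 211 and 219 in NRF2 cells with Cyss and 665, 825 and 1088 without. Its log2FC was 0.70 in GFP cells (adjusted p = 0.0559) and 2.05 in NRF2 cells (adjusted p = 1.42e-07). IL8, a chemokine, had 934 to 1069 normalized counts with Cyss in GFP cells and 984, 1750 and 2333 without, which overlap. Its log2FC there was 0.74 (adjusted p = 0.0775), and 0.43 (adjusted p = 0.216) without replicate 3 of GFP without Cyss, while it rose by 1.88 in NRF2 cells (adjusted p = 1.89e-08). MMP3, stromelysin, rose by 0.74 and 1.67, IL6 by 0.60 and 1.76, and VEGFA by 0.72 and 1.19. The values in GFP cells, leaving out replicate 3 without Cyss, were 0.39 for MMP1, 0.49 for MMP3, 0.44 for IL6 and 0.59 for VEGFA, all still called. HBEGF, a ligand of the EGF receptor, had a log2FC of 0.02 in GFP cells and rose by 1.16 in NRF2 cells, and CCND1, cyclin D1, had -0.07 and rose by 0.61. MMP13 was called in GFP cells (0.72, adjusted p = 0.0183) and not in NRF2 cells (0.42, adjusted p = 0.131), and TIMP1 in neither. The interaction was called positive for 12 of the 15 and negative for none, against 8.97% and 6.13% of all genes.

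MMP10, another stromelysin, had the largest difference between NRF2 and GFP cells of these targets. With Cyss, its normalized counts were 21.2, 29.8 and 21.0 in GFP cells and 271, 311 and 350 in NRF2 cells, a log2FC of 3.67 (adjusted p = 1.18e-10). With Cyss it was called higher in NRF2 cells together with IL8 (1.16) and MMP3 (0.46), 3 of the 15 (1.36% of all genes), whereas without Cyss 12 of the 15 were called higher (5.98% of all genes), MMP10 leading at 3.48. Without replicate 3 of GFP without Cyss, the counts were 5 in place of 6 for GFP cells, IL8 being lost, 13 in place of 12, CD44 being added, for NRF2 against GFP cells without Cyss, and 12 again for the interaction. Over all genes, these fits called 234 of 17550 higher, 1136 of 17375 higher and 1717 of 17737 positive.

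The other immediate early genes, 24 by list and all tested, were called mainly in NRF2 cells without Cyss. None was called without Cyss in GFP cells by edgeR or by DESeq2's Wald test. The median log2FC there was 0.06, and 6 were higher and 1 lower at an unadjusted p under 0.05. Of all 17452 genes tested there, 3160 were under that p in either direction. CTGF (log2FC 0.28, adjusted p = 4.34e-04), PLK2 (0.25, 0.00862), TRIB1 (0.30, 0.0113) and MYC (0.31, 0.0118) passed edgeR's test but not the fold threshold. KLF10 did so downward (-0.17, 0.0856). In NRF2 cells 16 rose and 1 fell (median 0.51), against 6.81% and 5.14% of all genes, and the interaction was positive for 14 and negative for 2, against 8.97% and 6.13%. IER3, a stress-induced regulator of cell survival, had normalized counts of 2908, 2926 and 2900 with Cyss in GFP cells, 2955, 3578 and 4476 without, 3012, 2969 and 3219 in NRF2 cells with Cyss and 6057, 6767 and 7936 without. Its log2FC in NRF2 cells was 1.17 (adjusted p = 5.24e-08). DUSP1, the phosphatase that switches off MAP kinases, rose by 0.60 (adjusted p = 1.11e-04), IER2 by 0.67, RHOB by 0.84 and the nuclear receptor NR4A3 by 0.86, but NR4A2, BTG2, KLF10, IER5 and ZFP36 were not called. ID1, an inhibitor of helix-loop-helix factors, fell by 0.54 on the log2 scale (adjusted p = 1.9e-05). With Cyss none of the 24 was called between NRF2 and GFP cells by edgeR or DESeq2 (3 higher and 4 lower at an unadjusted p under 0.05, which 3321 of 17449 genes passed in either direction). MYC (log2FC 0.13, adjusted p = 0.0674), KLF10 (-0.20, 0.0243) and RHOB (-0.14, 0.0810) passed edgeR's test there but not the fold threshold. Without Cyss 15 were higher, HBEGF most at 1.02, and 2 lower, against 5.98% and 4.09% of all genes. Without replicate 3 of GFP without Cyss the 15 became 14, NR4A1 being lost, and in the interaction CYR61 lost its call and NR4A3 gained one. Those fits called 1136 of 17375 genes higher and 1717 of 17737 positive. HBEGF stands in this list and in that of AP-1 targets.

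**Figure D5:**
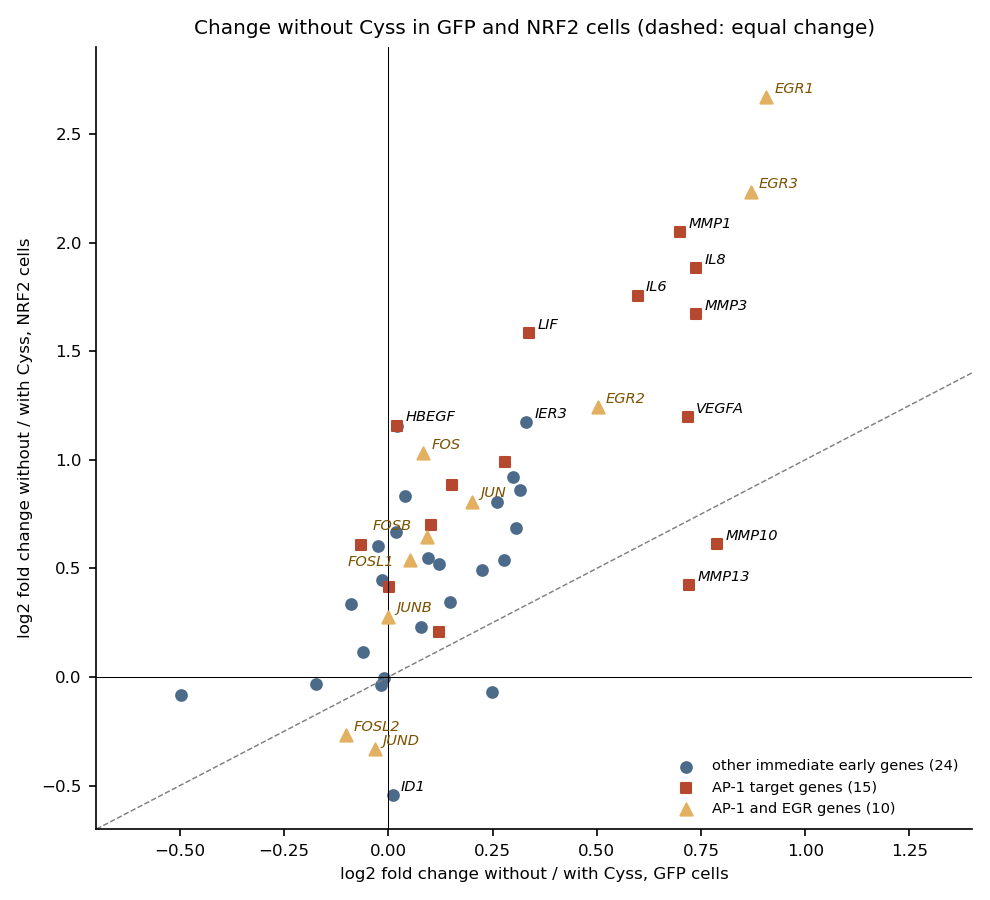
Fitted log2FC without against with Cyss in GFP cells (horizontal axis) and in NRF2 cells (vertical axis) for the 10 AP-1 and EGR genes (triangles), 15 AP-1 target genes (squares) and 24 other immediate early genes (circles), with equal change as a dashed line. EGR1, EGR3, MMP1 and IL8 lie highest, MMP13 and MMP10 lie below the line, and ID1 is lowest on the vertical axis.

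The partners of AP-1 in the bZIP class, 8 tested of 10 listed, included genes that rose in both kinds of cell. ATF3, a stress-induced factor that dimerizes with JUN, had normalized counts of 111, 85.0 and 81.3 with Cyss in GFP cells against 181, 228 and 241 without, and 90.2, 105 and 103 in NRF2 cells with Cyss and 181, 223 and 245 without. Its log2FC was 1.22 in GFP cells (adjusted p = 1.57e-04) and 1.12 in NRF2 cells (adjusted p = 1.75e-05), with an interaction of -0.11 (adjusted p = 0.793). JDP2, a JUN-binding repressor, rose by 0.85 in GFP cells and by 0.58 in NRF2 cells, and its interaction was negative (-0.28, adjusted p = 0.0291). MAFF, a small MAF protein that also partners NRF2, rose by 0.38 and 1.06, and MAFK by 0.51 in NRF2 cells. Of the 8 tested, 3 rose in GFP cells and 4 in NRF2 cells, against 1.57% and 6.81% of all genes. None was called between NRF2 and GFP cells with Cyss by either tool (3 higher and 1 lower at an unadjusted p under 0.05, which 3321 of 17449 genes passed in either direction). MAFG (log2FC 0.15, adjusted p = 0.0781) and ATF2 (-0.20, 0.0186) passed edgeR's test there but not the fold threshold. Without Cyss 2 were higher in NRF2 cells, MAFF by 0.72 and MAFK by 0.47, against 5.98% of all genes. Without replicate 3 of GFP without Cyss the first count was 2, ATF3 and JDP2, with MAFF at 0.26 (adjusted p = 0.156). In that fit 234 of 17550 genes were called higher.

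The upstream and feedback genes are read against the same shares of all genes, 6.81% higher and 5.14% lower in NRF2 cells and 8.97% positive and 6.13% negative in the interaction. Between NRF2 and GFP cells without Cyss the shares were 5.98% and 4.09%. An unadjusted p under 0.05, in either direction, was reached by 3160 of 17452 genes in GFP cells and 5887 of 17266 in NRF2 cells. Between NRF2 and GFP cells without Cyss 5962 of 17297 reached it. Of 17 MAP kinases and MAP kinase kinases, none was called in GFP cells by edgeR or DESeq2 (3 lower at an unadjusted p under 0.05), and in NRF2 cells without Cyss MAP2K3 rose (0.34) while MAPK12 (-0.35) and MAP2K6 (-0.80, adjusted p = 0.0088) fell, with a median of -0.05. Without Cyss, MAP2K3 was higher (0.39, adjusted p = 0.00173) and MAP2K6 lower (-0.69, adjusted p = 0.0592) in NRF2 than in GFP cells, against 5.98% and 4.09% of all genes. Of SRF and its partners, 6 in all, ELK3, an ETS factor, rose by 0.76 in NRF2 cells (adjusted p = 4.32e-08) and was 0.75 higher than in GFP cells without Cyss, while SRF itself had log2FC values of -0.05 in GFP cells and 0.00 in NRF2 cells. Without against with Cyss, ELK1 in NRF2 cells (0.31, adjusted p = 4.45e-04) and ELK4 in GFP cells (-0.20, adjusted p = 0.0897) passed edgeR's test but not the fold threshold. Of the co-repressors, NAB1 rose by 0.35 in NRF2 cells (adjusted p = 5.45e-04) and was 0.39 higher than in GFP cells without Cyss. NAB2 had a log2FC of 0.30 (adjusted p = 0.00577), under the fold threshold, and EGR4 was at 0 reads in every library. None of 6 proteins that bind AU-rich elements of mRNAs was called in any of the 4 comparisons by edgeR or DESeq2. Of these, the ZFP36 proteins and KHSRP hasten decay and ELAVL1 stabilizes mRNAs. At an unadjusted p under 0.05, to be read against the counts of all genes above, 1 was higher and 2 were lower without Cyss in GFP cells, and 2 were higher in NRF2 cells. In cells without Cyss 3 were higher with NRF2 than with GFP. Some passed edgeR's test but not the fold threshold. These were ZFP36L2 in GFP cells (log2FC -0.16, adjusted p = 0.0645), and ZFP36L1 (0.22, 0.00736) and KHSRP (0.13, 0.0944) in NRF2 cells. Between NRF2 and GFP cells without Cyss they were KHSRP (0.18, 0.0302) and ZFP36 (0.22, 0.0651). ZFP36 had a log2FC of 0.11 in NRF2 cells, while 3 had a positive interaction (ELAVL1, KHSRP and ZFP36L2, up to 0.19). Of 8 EGR1 targets tested, none was called in GFP cells by either tool (2 higher at an unadjusted p under 0.05). THBS1 passed edgeR's test there but not the fold threshold (log2FC 0.13, adjusted p = 0.0448). In NRF2 cells 4 rose, led by F3, tissue factor, with 3155, 3041 and 3291 normalized counts with Cyss and 4948, 5383 and 5956 without (log2FC 0.78, adjusted p = 3.47e-07). With Cyss, F3 had a log2FC of 0.22 between NRF2 and GFP cells, under the fold threshold, and without Cyss it was 0.76 higher in NRF2 cells, 1 of 3 called there. The interaction was called for 3 kinases as positive and 1 as negative, for 3 of SRF and its partners, for NAB1 and for 4 EGR1 targets as positive, and in the bZIP list for MAFF and ATF2 as positive. Leaving out replicate 3 of GFP without Cyss, it was also called positive for NAB2 (0.32, adjusted p = 0.0368), making 5 EGR1 targets, and for MAFK (0.45, adjusted p = 0.0166). In that fit 1717 of 17737 genes were called positive. NAB1 and NAB2 stand in both EGR lists, and ZFP36 in 2 lists as well.

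For each member whose normalized counts averaged 50 or more, the genes most like it over the 12 libraries, up to 3, were found among 13528 genes by Pearson's r of log2 CPM, given here as a description. For EGR1 these were PPARD (r = 0.992), FOXQ1 (0.989) and PRDM1 (0.988), and for EGR3 JARID2 (0.989), ASB1 (0.988) and DUSP6 (0.988). EGR2 was most like CTGF (0.990), SLC7A1 (0.977) and CNTNAP3 (0.976), FOS like SRRM2 (0.984), ITPR3 (0.981) and CREB5 (0.979), FOSL1 like TRAK1 (0.989), TSPAN14 (0.988) and ARHGAP22 (0.988), and JUN like RPLP0P2 (0.993), ITGA3 (0.993) and USP36 (0.993). JUNB was most like SRM (0.973), VPS37C (0.955) and PTBP1 (0.952). For the genes with their lowest means in NRF2 cells without Cyss these were CASC10 (0.972), DLX5 (0.970) and PIK3R1 (0.966) for FOSL2, and PCDH10 (0.947) and PPM1H (0.939) for JUND. All these r values share the same 12 libraries, which are not of one kind: those of NRF2 without Cyss stand apart from the rest on the first principal component. RPLP0P2 is a pseudogene, and its counts are uncertain where reads match the parent gene. DUSP6, a feedback phosphatase of ERK, had a mean of 802 ± 52.1 (SD, n = 3) normalized counts in GFP cells with Cyss, 1386 ± 803 without (784 and 1076 in replicates other than 3), 814 ± 22.4 in NRF2 cells with Cyss and 4149 ± 866 without. CTGF, like EGR2, had a narrow spread in GFP cells without Cyss (25590 ± 51.5).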

How the data were processed

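Total RNA of GFP and NRF2 Hs 578T cells was made into TruSeq libraries. Per the labels and the study's methods, the authors mapped the reads to hg19 with TopHat2 2.1.0 and counted them with HTSeq 0.11.2 without regard to strand; the annotation used for counting is not given in the sources used here. The deposited values are raw read counts per gene symbol, not normalized, for 12 libraries. Reads that the 5 HTSeq counters hold (15.9 to 17.1% of reads) and 523 rRNA genes were left out. For each of 4 comparisons the 6 libraries were scaled by TMM and every gene averaging 10 or more normalized counts in 1 group or both was tested with the quasi-likelihood method of edgeR 4.0.16 (R 4.3.3), p-values being adjusted by Benjamini-Hochberg over these genes. Calls needed an adjusted p under 0.1 and an absolute log2FC over 0.32, and the interaction (12 libraries) an adjusted p under 0.1. SEs are |log2FC| over the square root of F. Printed counts and RPKM used TMM over 12 libraries and, for length, merged exons of GENCODE 44. Promoters are from RefSeq. Nothing in the labels ties replicate numbers to separate cultures, so p-values measure the spread between these libraries, which may be technical.

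Named genes were all 10 members, called genes of 8 lists (of each list at least the called gene with the largest change per comparison), the 3 genes most like each member, and NFE2L2. One of the genes most like JUND is not reported here. NR4A2, BTG2, KLF10, IER5, ZFP36, ZFP36L1, MAFG, TIMP1, SRF, NAB2 and EGR4 were named as list members outside that rule. Members and lists were chosen with earlier results of these data known. Alternatives were DESeq2 1.42.0's size factors and Wald test, scaling by library size, no filter, all 12 libraries, a replicate block, changed thresholds and fits that each left 1 library out, the last for the lists and family shares only with replicate 3 of GFP without Cyss and added after the data were seen. The procedure was tested on simulated data. Replicates differed by more than sampling noise in all groups.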

Additional observations from a re-analysis of the deposited data

Results flagged for a closer look

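The response to Cyss deprivation differed between NRF2 and GFP cells in the interaction test of edgeR for 7 of the 10 genes, each larger in NRF2 cells, while 8.97% of all genes were called positive and 6.13% negative. DESeq2's Wald test called 5 positive and scaling by library size 6, and JUNB and EGR3 lost their calls in 6 and 4 of 12 leave-one-out fits. Of all genes, DESeq2's Wald test called 1530 of 17674 positive and 903 negative, and scaling by library size 1124 of 17677 positive and 1981 negative. The differences on the log2 scale were 1.76 for EGR1 (adjusted p = 6.39e-04), 1.36 for EGR3 (adjusted p = 0.0484), 0.95 for FOS (adjusted p = 0.0245), 0.74 for EGR2 (adjusted p = 0.0329), 0.61 for JUN (adjusted p = 0.00529), 0.49 for FOSL1 (adjusted p = 0.00327) and 0.28 for JUNB (adjusted p = 0.0679). By the definition of the term, a positive interaction means that the fitted log2FC in NRF2 cells was above that in GFP cells. Single samples were not tested for standing apart, since groups of 3 are too small for it.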

How the results depend on the processing

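The number of the 10 genes called ran, over the fits that left out 1 library each, from 0 to 2 without against with Cyss in GFP cells (1 with all libraries), from 7 to 9 in NRF2 cells (8), from 1 to 1 for NRF2 with Cyss (1), from 6 to 8 for NRF2 without Cyss (8) and from 5 to 9 for the interaction (7). In GFP cells the count was 2 with no filter on low counts, where EGR3 was added (adjusted p = 8.81e-05), and 2 with all 12 libraries in the fit, where EGR2 was added (adjusted p = 0.0776), and for NRF2 with Cyss it was 2 with no fold threshold, where JUN was added. With the replicate number as a replicate block the counts were 1, 8, 1, 8 and 8, JUND being added to the interaction (log2FC -0.30, adjusted p = 0.0585). The numbers were not taken to pair the libraries, since the study's methods name no pairing. Correlations of deviations ran from -0.159 to 0.244 between same-numbered libraries and from -0.275 to 0.164 between others. For Cyss deprivation in NRF2 cells the same-numbered values (0.0337, 0.194 and 0.0742) were above all others (at most 0.0279). These values do not decide whether the libraries were paired. All other settings gave counts within 1.5 times those reported. Of the single-gene values under other settings, 668 kept their direction and call, 17 gained a call, 22 lost one and 22 changed sign, and 11 had no adjusted p in DESeq2.

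All changes of sign were among genes not called. In GFP cells JUNB came to 0.0031 with the replicate block and 0.0013 with all 12 libraries. For NRF2 with Cyss and no filter on low counts, FOSL1 came to -0.0061, FOSL2 to -0.0012 and EGR2 to -0.0045. The rest arose from leaving out 1 library, over which the log2FC in GFP cells ran from -0.14 to 0.21 (FOS), -0.092 to 0.27 (FOSB), -0.059 to 0.13 (FOSL1), -0.061 to 0.053 (JUNB) and -0.089 to 0.028 (JUND), and for NRF2 with Cyss from -0.073 to 0.20 (FOSB), -0.018 to 0.029 (FOSL1), -0.036 to 0.087 (EGR2) and -0.033 to 0.39 (EGR3). In GFP cells the negative values of FOS, FOSL1 and JUND's positive one arose without replicate 3 without Cyss. The cause was not tested. Depth limits FOS, FOSB, EGR2 and EGR3, with 29 to 220 reads per library.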
